A study of Mus musculus with 4 samples.

Results

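Glucocorticoid hormones act on Leydig cells through the glucocorticoid receptor, and 10 genes tied to that response, to the TSC22 family or to both were followed here in mouse Leydig cells with lowered Trps1. The genes are Tsc22d1, Tsc22d3, Fkbp5, Sgk1, Hsd11b1, Zbtb16, Errfi1, Mt1, Mt2 and Klf9. They were chosen by name from the 55812 features of a read count table, with the difference between Trps1 siRNA and Negative siRNA already known, so their differences are given as a description, with no test. RNA sequencing was done on primary Leydig cells labelled as coming from 6-month-old mice. There were 2 samples given a negative control small interfering RNA (Negative siRNA) and 2 given a small interfering RNA against Trps1 (Trps1 siRNA), a GATA-type zinc finger repressor. The siRNA was the difference between the groups that the labels give. They are called controls and knockdown samples. Strain, dose and time of treatment are not stated in the sources used here. Since the labels do not say that a group's samples are separate cultures or animals, the p-values cover the spread between these samples only, and that spread may be technical.

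In textbook terms, circulating corticosterone is bound in blood by corticosteroid-binding globulin, and inside cells 11-beta-hydroxysteroid dehydrogenases set how much active hormone is present. The hormone binds the glucocorticoid receptor, held ready by HSP90 and its co-chaperones, and the receptor then moves to the nucleus and raises transcription of a set of target genes. Fkbp5, Tsc22d3, Sgk1, Zbtb16, Klf9, Errfi1 and the metallothioneins Mt1 and Mt2 are among its known targets, and the testis uses this system to lower androgen production under stress. Tsc22d1 belongs to the same leucine zipper family as Tsc22d3 and is best known as a gene induced by TGF-beta.

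Library totals ran from 17844125 to 25852898 counts. Trps1 itself had 38.1 and 42.2 CPM (counts scaled to library size) in the controls and 23.5 and 30.1 CPM in the knockdown samples, which is 67.1% of the control. Of 14701 genes that passed the expression filter, 1652 passed the threshold of 0.05 on the Benjamini-Hochberg adjusted p of edgeR (quasi-likelihood fit), 770 of them higher and 882 lower. That count was 871 when sample 2 of Trps1 siRNA was left out. Over all tested genes 5.24% were called higher and 6.00% lower. Leydig markers were abundant in each sample, and none of the 10 was at 0. They summed to 6081 and 6397 CPM in the controls and 8751 and 9066 CPM in the knockdown samples. Of the 10, 7 were called higher and 0 lower. Macrophage markers were present too, and 7 of the 12 fell. They summed to 3079 and 2997 CPM in the controls and to 2607 and 2054 CPM in the knockdown samples, with none at 0 in all samples. Peritubular myoid markers summed to 94.1 and 95.1 CPM and to 59.0 and 62.8 CPM in the same order, and 2 of the 4 tested fell. Sertoli markers summed to 37.7 to 44.1 CPM, endothelial to 37.5 to 46.4 CPM and lymphocyte to 1.47 to 3.33 CPM over the 4 samples. Of 4 tested Sertoli markers 1 was called higher. None of the 8 endothelial markers passed the threshold, nor did the 1 tested lymphocyte marker. In bulk samples such as these, fewer cells of a type and less RNA per cell cannot be told apart.

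Sequence upstream of transcription starts is shown for 4 of the genes: Mt1 and Mt2, neighbouring genes with very different counts, Sgk1, whose window held a full receptor element, and Tsc22d1, the gene with the largest difference. RefSeq windows for GRCm38 covered 9 of the 10 genes with 21 starts, and the search used the 250 bases before each start, on both strands. The first sequence lies at chr8:94178839-94179078, the second at chr8:94172368-94172617, the third at chr10:21993640-21993789 and the fourth at chr14:76503976-76504125, all on the plus strand. Capitals mark metal response elements (TGCACNC or TGCGCNC, the sites of the zinc sensor MTF1) in Mt1 and Mt2, the glucocorticoid receptor element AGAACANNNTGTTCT in Sgk1, and GATAA, the core that GATA-type proteins bind, in Tsc22d1.
Mt1: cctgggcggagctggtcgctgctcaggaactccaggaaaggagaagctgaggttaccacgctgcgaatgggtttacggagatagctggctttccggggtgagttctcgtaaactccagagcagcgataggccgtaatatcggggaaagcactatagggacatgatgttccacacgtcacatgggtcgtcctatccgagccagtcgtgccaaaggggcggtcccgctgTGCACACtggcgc
Mt2: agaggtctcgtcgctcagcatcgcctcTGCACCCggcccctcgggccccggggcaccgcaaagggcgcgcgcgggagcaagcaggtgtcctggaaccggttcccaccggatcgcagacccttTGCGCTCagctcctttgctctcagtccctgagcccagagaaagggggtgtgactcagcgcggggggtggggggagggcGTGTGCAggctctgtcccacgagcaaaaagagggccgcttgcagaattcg
Sgk1: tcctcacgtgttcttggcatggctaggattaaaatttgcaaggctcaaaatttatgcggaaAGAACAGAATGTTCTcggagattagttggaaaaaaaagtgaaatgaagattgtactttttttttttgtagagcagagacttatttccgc
Tsc22d1: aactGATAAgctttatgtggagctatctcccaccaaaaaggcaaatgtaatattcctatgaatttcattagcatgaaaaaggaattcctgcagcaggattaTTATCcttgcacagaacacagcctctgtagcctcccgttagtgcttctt

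The palindromic receptor element was found in 1 of the 21 windows, that of Sgk1, and in 3 of all 32851 windows of the same length (0.00913%). It begins 189 bases before that start, 1 of 6 starts that RefSeq gives for Sgk1. Its half-site AGAACA, which overlaps it by construction, was in 5 of the 21 windows (of Sgk1, Tsc22d1 and Tsc22d3), against 16.1% of all windows. A metal response element was in the windows of Mt1, Mt2 and Hsd11b1 and in 21.4% of all windows, with 1 match before the start of Mt1 and 3 before that of Mt2. GATAA was in 6 of the 21 windows, against 22.6% of all, and in 1 of the 5 windows of Tsc22d1, the one printed. A match is a description of letters only. The number of matches depends on where the annotated start lies, and windows with few or none say nothing about sites elsewhere.

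Among the 10 genes, Tsc22d1 stood higher in the knockdown samples, Mt1 stood lower, and Fkbp5, Tsc22d3, Errfi1 and Klf9 had log2 fold changes between -0.06 and 0.04. Of the 9 that passed the expression filter, 3 passed the threshold of the fit over all genes, with Tsc22d1 and Zbtb16 higher and Mt1 lower. Over all tested genes 11.2% passed it, 5.24% as higher and 6.00% as lower. Since this contrast chose the genes, nothing is read from that count. In 4 of the 9 (Tsc22d1, Hsd11b1, Zbtb16 and Mt1) the groups did not overlap, as in 52.2% of all tested genes. Of the genes inside the threshold Zbtb16 lay nearest to it, with a log2 fold change of 0.32 ± 0.10 (standard error), and of those outside it Sgk1, with 0.16 ± 0.07, was the nearest though not close.

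**Figure D1:**
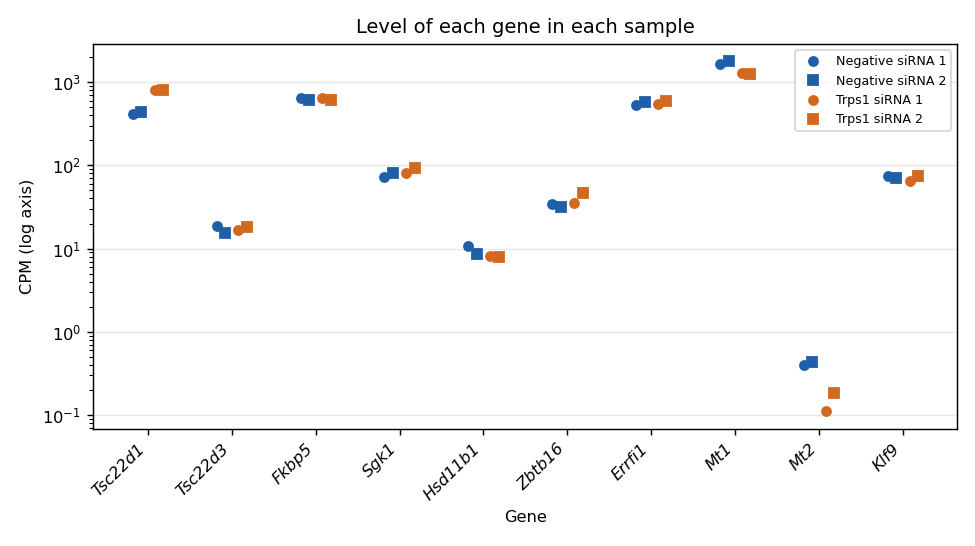
CPM of each of the 10 genes on a log axis, in the controls samples in blue and Trps1 siRNA samples in orange. Each point is 1 sample. Tsc22d1 and Mt1 are the abundant genes whose groups separate, Fkbp5 and Errfi1 overlap at high levels, and Mt2 lies below 1 CPM.

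The genes covered a wide span of levels. Per length, in RPKM (CPM per kilobase of annotated exon), the control level was 1364 for Mt1, 154 for Errfi1, 65.7 for Fkbp5 and 47.5 for Tsc22d1. Sgk1 and Klf9 followed at 15.7 and 15.1 RPKM, a gap within the spread of their samples. Zbtb16 was at 6.21, Tsc22d3 at 3.91 and Hsd11b1 at 2.29 RPKM. The count of Mt2 gave 0.704 RPKM, which cannot be read as its expression, for the reason given below. Mt1 thus lay above 99.9% of tested genes per length, Fkbp5 above 94.3% and Tsc22d3 above 46.4%.

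Hsd11b1 encodes the reductase that regenerates active corticosterone within cells. It had 10.8 and 8.71 CPM in the controls and 8.07 and 7.96 CPM in the knockdown samples. The knockdown samples lay just below both controls, and the log2 fold change of -0.28 ± 0.15 did not pass the threshold. Its partner in the endoplasmic reticulum, H6pd, which supplies the enzyme with NADPH, was abundant, at 907 and 884 CPM in the controls and 882 and 913 CPM in the knockdown samples. Hsd11b2, which inactivates the hormone, was barely detected, at 0.846 and 0.977 CPM and 1.06 and 0.782 CPM in the same order. Neither H6pd nor Hsd11b2 passed the test (edgeR adjusted p = 0.984 and 0.997). Serpina6, the corticosteroid-binding globulin, rose 1.63-fold from a low level, with 4.18 and 5.16 CPM in the controls and 6.67 and 8.56 CPM in the knockdown samples (log2 fold change 0.70 ± 0.18, edgeR adjusted p = 0.0124). That call was lost without sample 1 of Negative siRNA and without sample 2 of Trps1 siRNA, where the log2 fold change was 0.568 and 0.502. It was also lost with DESeq2 (adjusted p = 0.0688).

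The receptor gene Nr3c1 fell slightly, from 50.0 and 57.3 CPM to 44.8 and 45.4 CPM, a log2 fold change of -0.25 ± 0.08 (edgeR adjusted p = 0.0372). Both knockdown samples lay below both controls, and the controls differed from each other by more than the groups were apart at their nearest samples. The call was lost without sample 2 of Negative siRNA (log2 fold change -0.152), and also without sample 1 (-0.246) or sample 2 (-0.268) of Trps1 siRNA. It was lost too with DESeq2 (adjusted p = 0.135), library totals alone, limma voom and non-robust edgeR. Nr3c2, the mineralocorticoid receptor, which also binds corticosterone, had 6.02 and 5.74 CPM against 5.32 and 4.37 CPM and did not pass the test (edgeR adjusted p = 0.388). Of the 19 genes of the receptor and chaperone list, Serpina6 rose and Nr3c1 fell, while 17 missed the threshold. Their median log2 fold change was 0.003, beside 0.002 over all tested genes. Of this list 10.5% passed the threshold, beside 11.2% of all tested genes, so the share called was not above that background.

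Fkbp5 is the co-chaperone that lowers the receptor's affinity for hormone, and its rise is a standard readout of receptor activity. It had 639 and 605 CPM in the controls and 645 and 612 CPM in the knockdown samples. The groups overlapped almost fully, and the log2 fold change was 0.01 ± 0.06. Fkbp4, the co-chaperone that works in the opposite sense, had a log2 fold change of 0.06 ± 0.06 (edgeR adjusted p = 0.584).

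Tsc22d3 encodes GILZ, a leucine zipper protein that carries part of the anti-inflammatory action of glucocorticoids. Its samples read 18.8 and 15.2 CPM in the controls and 16.7 and 18.1 CPM in the knockdown samples. The knockdown values fell inside the control range, with a log2 fold change of 0.04 ± 0.12. The sign of that small value turned with the sample left out, from -0.106 without sample 2 of Negative siRNA to 0.193 without sample 1.

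Tsc22d1, the other TSC22 gene of the group, had 417 and 437 CPM in the controls and 802 and 797 CPM in the knockdown samples. The samples of each group lay within a few percent of each other and the groups were far apart, a 1.87-fold difference with a log2 fold change of 0.90 ± 0.06. With any 1 sample left out the log2 fold change stayed between 0.869 and 0.936. The authors' deposited table also lists Tsc22d1, with a log2 fold change of 0.90. It covers the same groups of samples, so it is not a second measurement. The gene lies on chromosome 14 (76414961 to 76507765, plus strand, GRCm38). It has 5 RefSeq starts and makes long and short proteins, which a count per gene cannot separate. The remaining family members were tested as paralogs: Tsc22d2 had 43.4 and 44.6 CPM against 45.5 and 49.5 CPM, and Tsc22d4 had 98.1 and 94.7 CPM against 103 and 107 CPM. Neither passed the test, with log2 fold changes of 0.11 ± 0.08 and 0.12 ± 0.06 (edgeR adjusted p = 0.421 and 0.195).

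**Figure D2:**
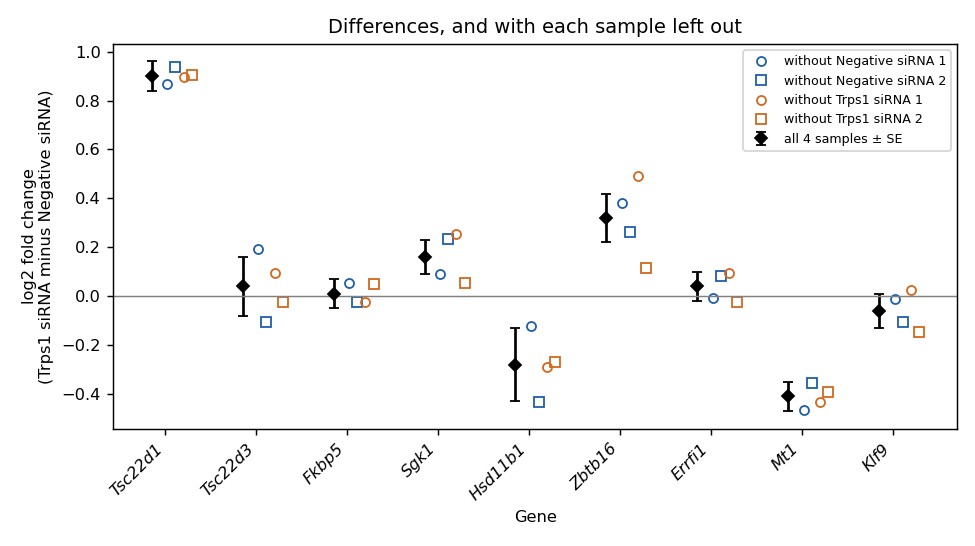
Log2 fold change (Trps1 siRNA minus Negative siRNA) of the 9 genes that passed the expression filter. Black diamonds use all 4 samples, with standard errors, and open symbols leave out 1 sample each; Tsc22d1 stays between 0.869 and 0.936 and Mt1 between -0.466 and -0.355, while Zbtb16 spans 0.117 to 0.492.

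Sgk1 encodes a kinase that raises sodium transport and inhibits FOXO factors. It had 72.9 and 80.6 CPM in the controls and 79.9 and 91.7 CPM in the knockdown samples. The groups overlapped, and the higher value of each group was in sample 2. The log2 fold change of 0.16 ± 0.07 did not pass the threshold, but did without sample 1 of Trps1 siRNA (0.254). Of 12 genes that activate SGK1 or are its substrates, 2 rose and 10 did not pass the test, with a median log2 fold change of 0.126. The share that passed was 16.7%, beside 11.2% of all tested genes. Foxo3 rose 1.16-fold, from 102 and 103 CPM to 117 and 122 CPM (edgeR adjusted p = 0.0122). Its call was lost without sample 1 (0.209) or sample 2 (0.227) of Negative siRNA and without sample 2 of Trps1 siRNA (0.181). The Foxo3 call was also lost with DESeq2. Mlst8, an mTOR complex subunit, rose 1.33-fold with an edgeR adjusted p of 0.0497, at the threshold, and its call was lost with each sample left out (log2 fold change 0.303 to 0.505). The Mlst8 call was lost too with no filter, DESeq2, limma voom and non-robust edgeR. Mlst8 also shares 997 exon bases with Bricd5 on the opposite strand. Foxo1 and the SGK1 substrate Ndrg1 had log2 fold changes of 0.20 ± 0.09 and 0.27 ± 0.10, neither past the test (edgeR adjusted p = 0.151 and 0.156). Foxo1 shares 674 exon bases with Gm20402, and Ndrg1 556 with Gm17035 and Gm2895, on the opposite strand. The paralog Sgk3 had a log2 fold change of 0.01 ± 0.08 (edgeR adjusted p = 0.966), and Sgk2 had no counts.

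Zbtb16 encodes PLZF, a zinc finger repressor that glucocorticoids induce in many cells and that also marks undifferentiated spermatogonia. It had 34.2 and 31.5 CPM in the controls and 35.6 and 46.1 CPM in the knockdown samples. Sample 1 of Trps1 siRNA sat just above the controls, and sample 2 carried most of the difference. The log2 fold change was 0.324 with all samples, 0.117 without sample 2 of Trps1 siRNA and 0.492 without sample 1. It lost the threshold without sample 2 of Trps1 siRNA, without sample 2 of Negative siRNA (0.263), and with DESeq2, limma voom or non-robust edgeR. Of 9 germ cell markers, which summed to 1.39 and 1.17 CPM in the controls and to 1.46 and 2.44 CPM in the knockdown samples, 1 was tested (Dazl) and did not pass, and Gfra1 and Tnp1 had no counts. The highest sum was in the sample with the highest Zbtb16, and the part of germ cells in the Zbtb16 difference was not tested.

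Klf9, a Krüppel-like repressor induced by glucocorticoids and thyroid hormone, had 74.8 and 70.1 CPM in the controls and 65.5 and 73.7 CPM in the knockdown samples. The groups overlapped, and the log2 fold change was -0.06 ± 0.07. It was 0.024 without sample 1 of Trps1 siRNA. Its close paralogs Klf13 and Klf16 had log2 fold changes of 0.01 ± 0.06 and -0.01 ± 0.09 (edgeR adjusted p = 0.942 and 0.979). Of 12 tested other KLF factors, Klf2 fell and 11 did not pass the test, with a median of 0.010. The share that passed was 8.33%, beside 11.2% of all tested genes. Klf2, a flow-responsive factor of endothelium and macrophages, had 48.9 and 48.2 CPM against 40.0 and 38.9 CPM (log2 fold change -0.30 ± 0.08, edgeR adjusted p = 0.0108). The call was lost without sample 1 of Negative siRNA (-0.291) and without sample 2 of Trps1 siRNA (-0.281). Klf4, Klf10 and Klf6 followed by p, with log2 fold changes of -0.20 ± 0.08, 0.16 ± 0.10 and -0.09 ± 0.06, none past the test (edgeR adjusted p = 0.121, 0.339 and 0.430).

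Errfi1 encodes MIG6, a feedback inhibitor of the EGF receptor kinase. It was abundant and overlapped between the groups, with 534 and 568 CPM in the controls and 542 and 589 CPM in the knockdown samples. The difference on the log2 scale was 0.04 ± 0.06. Of 15 tested genes of the EGF receptor family, its ligands and its feedback regulators, 1 fell and 14 did not pass the test. The share that passed was 6.67%, beside 11.2% of all tested genes, and the median was -0.003. The gene that fell was Spry1, an inhibitor of receptor tyrosine kinase signalling, from 32.4 and 34.3 CPM to 28.3 and 26.1 CPM (log2 fold change -0.30 ± 0.09, edgeR adjusted p = 0.0306). Spry1 shares 710 exon bases with Gm42922 on the opposite strand. Its call was lost without sample 2 of either group (-0.257 for Negative siRNA, -0.242 for Trps1 siRNA) and with DESeq2. The ligand Hbegf had a log2 fold change of -0.54 ± 0.20, the receptor inhibitor Lrig1 one of -0.16 ± 0.07 and Socs5 one of 0.19 ± 0.08, none past the test (edgeR adjusted p = 0.0872, 0.130 and 0.140).

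Metallothioneins are small cysteine-rich proteins that bind zinc and copper, and their genes respond to metals through MTF1 as well as to glucocorticoids. Mt1 had 1635 and 1765 CPM in the controls and 1299 and 1260 CPM in the knockdown samples. Both knockdown samples lay well below both controls and close to each other, at 75.3% of the control with a log2 fold change of -0.41 ± 0.06. The value stayed between -0.466 and -0.355 with any 1 sample left out. The authors' deposited table, which covers the same groups of samples, gives -0.41. Macrophage markers summed to 3079 and 2997 CPM in the controls and to 2607 and 2054 CPM in the knockdown samples. The part of macrophages in the Mt1 difference was not tested.

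Mt2, the neighbour of Mt1 and usually expressed with it, had 8 and 11 reads in the controls and 2 and 4 in the knockdown samples, against 23189 to 45172 reads for Mt1. It did not pass the expression filter, and no fold change is given. Of its 588 annotated exon bases 432 (73.5%) are shared with Gm45774, a gene on the opposite strand that had 3, 1, 9 and 11 reads in the 4 samples in the same order. The sources used here do not say how reads in shared exons were counted, so the Mt2 count cannot be read as its expression, and the cause of the low count was not tested.

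Mt3, a gene of the same cluster known mainly from brain, had 273 and 303 CPM in the controls and fell to 202 and 191 CPM in the knockdown samples (log2 fold change -0.55 ± 0.06, edgeR adjusted p = 8.05e-07). The groups did not overlap, and the log2 fold change stayed between -0.629 and -0.479 with 1 sample left out. Mt4 had no counts. The 4 genes lie within 43.1 kb of chromosome 8.

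Among 19 tested zinc transporters and Mtf1, 1 rose and 2 fell, while 16 missed the threshold, with a median log2 fold change of 0.031. The share past it was 15.8%, beside 11.2% of all tested genes. Slc39a14, which brings zinc and other metals into cells, fell from 49.2 and 48.7 CPM to 36.6 and 35.7 CPM (log2 fold change -0.44 ± 0.08, edgeR adjusted p = 3.49e-04). Slc39a13, a zinc transporter of the Golgi and vesicles, fell from 62.7 and 60.5 CPM to 52.8 and 46.5 CPM (log2 fold change -0.31 ± 0.08, edgeR adjusted p = 0.00719). Without sample 2 of Trps1 siRNA the call of Slc39a13 was lost (-0.226), and it shares 215 exon bases with Psmc3 on the opposite strand. Slc30a2, which moves zinc into vesicles, rose from 115 and 108 CPM to 173 and 150 CPM (log2 fold change 0.53 ± 0.06, edgeR adjusted p = 3.01e-06). In Slc39a14 and Slc30a2 the groups did not overlap and both calls held with each sample left out. Mtf1 itself had a log2 fold change of 0.05 ± 0.10, and Slc39a9 one of 0.14 ± 0.06 (edgeR adjusted p = 0.810 and 0.189). The zinc exporter Slc30a1, a standard target of MTF1, was too low to read, with a log2 fold change of -0.44 ± 0.61. Mtf1, Slc39a9 and Slc30a1 share 721, 459 and 468 exon bases with genes on the opposite strand.

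**Figure D3:**
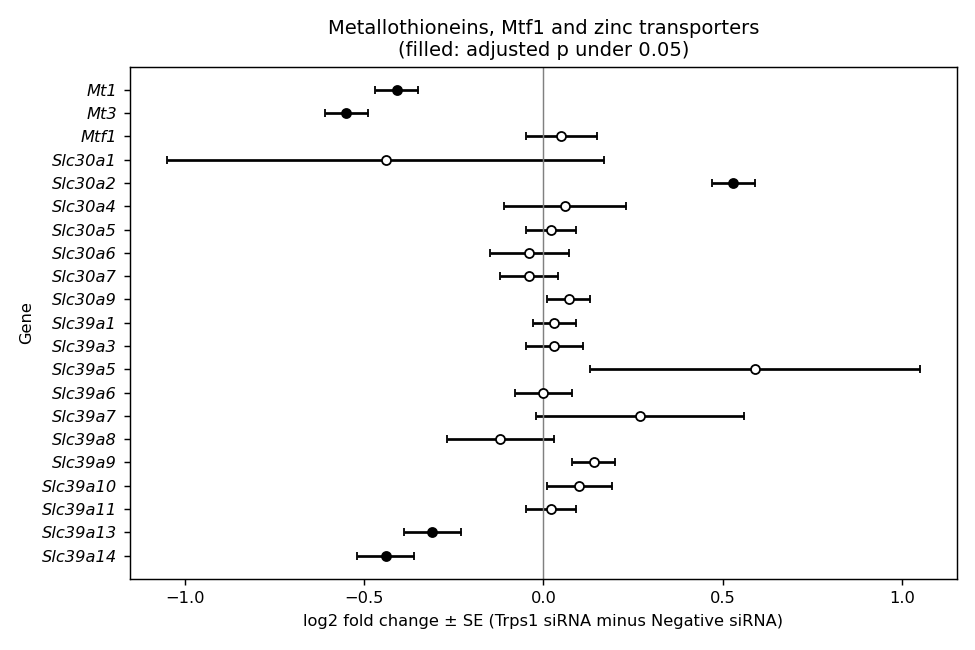
Log2 fold change with standard error of Mt1, Mt3, Mtf1 and the tested zinc transporters, filled where the adjusted p is under 0.05. Mt1, Mt3, Slc39a13 and Slc39a14 lie to the left of 0 with filled symbols and Slc30a2 to the right, and Mtf1 lies near 0.

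Other genes known to be induced by glucocorticoids went in both directions. Of 28 tested, 4 rose and 6 fell, while 18 missed the threshold. The share past it was 35.7%, beside 11.2% of all tested genes. The median log2 fold change was 0.003, beside 0.002 over all tested genes. Those that fell included Fam107a, an actin-associated protein induced by stress hormones, from 8.16 and 7.07 CPM to 3.14 and 2.94 CPM (log2 fold change -1.32 ± 0.19, edgeR adjusted p = 3.01e-05). Glul, the enzyme that makes glutamine, fell from 4266 and 3623 CPM to 2719 and 2591 CPM (log2 fold change -0.57 ± 0.06, edgeR adjusted p = 2.44e-06). Cavin2, a coat protein of caveolae, fell to 0.685 of the control. Anxa1, an anti-inflammatory lipid-binding protein, fell to 0.848 and Dusp1, a phosphatase that turns off MAP kinases, to 0.858 (edgeR adjusted p = 0.0116, 0.00914 and 0.0163 for Cavin2, Anxa1 and Dusp1). Those that rose included Lpin1, a phosphatidate phosphatase, from 27.5 and 27.4 CPM to 35.1 and 41.5 CPM (log2 fold change 0.48 ± 0.09, edgeR adjusted p = 6.58e-04). Ddit4, an inhibitor of mTOR complex 1, rose 1.20-fold and Rasd1, a dexamethasone-induced Ras protein, 1.17-fold (edgeR adjusted p = 0.0022 and 0.00984). The other called genes, named after their values were seen, were Lcn2, an iron-carrier binding protein, which rose 1.14-fold, and Birc3, an inhibitor of apoptosis, which fell to 0.839 of the control (edgeR adjusted p = 0.0247 and 0.0262). The calls of Fam107a and Lpin1 held with each sample left out.

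Without sample 2 of Trps1 siRNA the count of induced genes past the threshold went from 10 to 4, and without sample 1 of Negative siRNA to 6. The first of these removed the calls of Glul (-0.539), Cavin2 (-0.594), Anxa1 (-0.235), Birc3 (-0.264), Rasd1 (0.189) and Dusp1 (-0.192). Without sample 1 of Negative siRNA those of Ddit4 (0.215), Lcn2 (0.124), Birc3 (-0.209), Rasd1 (0.182) and Dusp1 (-0.166) were lost, and Arrdc2 (0.699) passed. Glul (-0.608), Cavin2 (-0.509) and Birc3 (-0.248) also lost theirs without sample 1 of Trps1 siRNA. Without sample 2 of Negative siRNA, Anxa1 (-0.177) and Lcn2 (0.241) lost theirs. All these values are log2 fold changes and kept their sign.

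Of 12 tested inflammatory genes that glucocorticoids classically repress, 1 rose and 2 fell, while 9 missed the threshold. The share past it was 25.0%, beside 11.2% of all tested genes, and the median log2 fold change was -0.082. Ccl2, the chemokine that draws monocytes, fell from 297 and 296 CPM to 236 and 205 CPM (log2 fold change -0.43 ± 0.06, edgeR adjusted p = 5.47e-05). The related Ccl7 fell from 120 and 132 CPM to 113 and 93.1 CPM (-0.29 ± 0.08, edgeR adjusted p = 0.0241). Cxcl1, which draws neutrophils, rose from 18.1 and 15.7 CPM to 22.7 and 21.4 CPM (0.39 ± 0.11, edgeR adjusted p = 0.0235). For Tnf the log2 value was -0.35 ± 0.19, not past the test (edgeR adjusted p = 0.277). The call of Ccl7 was lost without sample 2 of either group (-0.221 for Negative siRNA, -0.158 for Trps1 siRNA). That of Cxcl1 was lost without sample 2 of Negative siRNA (0.284) and without sample 1 (0.345) or sample 2 (0.428) of Trps1 siRNA. The Cxcl1 call was also lost with DESeq2. The list's count fell to 1 without sample 2 of either group. For Ccl2 and Ccl7 the lower knockdown value was in sample 2, which also had the fewest macrophage marker counts (2054 CPM), and the part of macrophages in these differences was not tested.

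**Figure D4:**
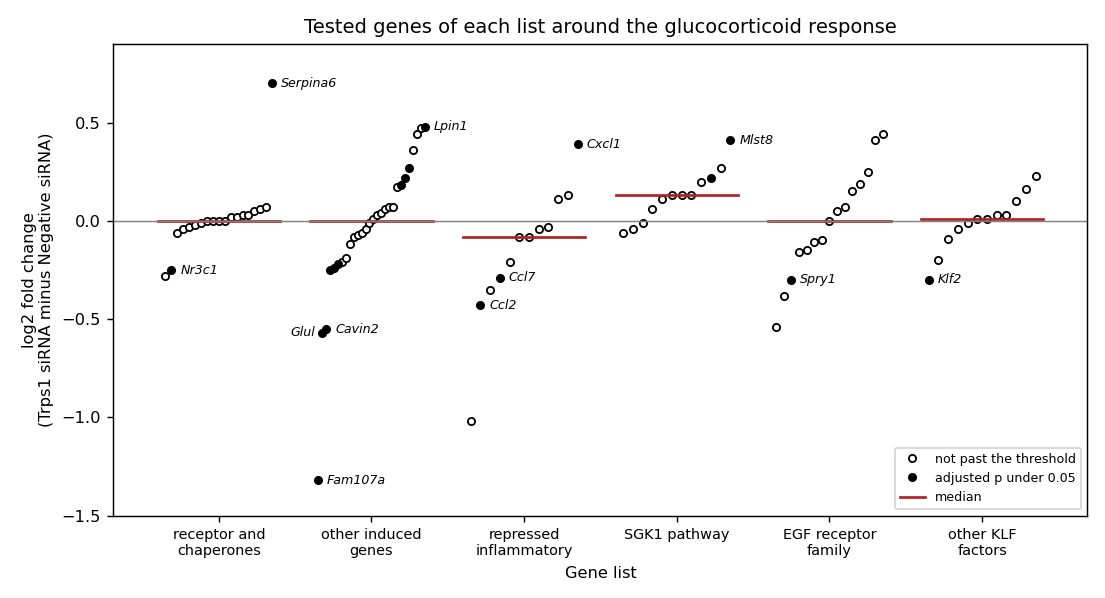
Log2 fold change of each tested gene in 6 gene lists around the glucocorticoid response, filled where the adjusted p is under 0.05, with the list's median as a red line. The medians lie between -0.082 and 0.126, and filled symbols lie on both sides of 0 in the receptor, induced and repressed lists.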

How the data were processed

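The authors deposited raw read counts per gene for 4 samples; the submitters' processing notes name HISAT2, featureCounts and GRCm38, without versions, and the sources used here give no strandedness. A second deposited table covers 780 genes, with the authors' mean signal (normalized counts) per group, log2 fold change and p-values; the test behind it is not stated.

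Symbols and exon lengths came from GENCODE M21 (55141 of 55812 features matched). Exon overlaps on the opposite strand are given for some of the named genes only. Counts were tested with edgeR 4.0.16 (R 4.3.3): TMM, filterByExpr (minimum count 10), robust glmQLFit, glmQLFTest, group only, 2 residual degrees of freedom, Benjamini-Hochberg adjustment over all 14701 genes tested, and a threshold of 0.05. The fit was run on counts simulated with the same dispersion for every gene. That setting leaves out differences in dispersion between genes, so it does not check single calls. Standard errors are the log2 fold change over the square root of F. CPM used library totals (17844125 to 25852898 counts) multiplied by TMM factors; depth limits precision for low genes.

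Members and lists were chosen with earlier results of these data known. Named genes are the members, Trps1, all tested paralogs, 4 genes with the smallest p per list (8 for induced genes), Nr3c1, Nr3c2, Hsd11b2 and H6pd; Slc30a1, Mtf1, Lcn2, Birc3 and Arrdc2 were added after their values were seen. A gene that this rule selects is not reported here. Alternatives were RLE or no scaling factors, no filter, a filter at mean CPM 5, DESeq2 1.42.0, limma voom (3.58.1), robust=FALSE, a replicate block, and each sample left out.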

Additional observations from a re-analysis of the deposited data

How the results depend on the processing

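Each result was recomputed under 12 alternatives. The named genes were picked with this contrast known or by small p in it, so counts of calls that held are a description only. The calls of Tsc22d1, Mt1, Trps1, Mt3, Slc30a2, Slc39a14, Ccl2, Fam107a and Lpin1 held under all of them, which is 9 of the 25 named genes past the threshold; the other 16 lost their call under at least 1, without a change of sign. The count of genes changed was 991 with DESeq2 and 871 to 1675 with 1 sample left out, where the smallest count came from dropping sample 2 of Trps1 siRNA. The 3 chosen genes past the threshold were 2 to 4 with 1 sample left out. With DESeq2 the receptor and chaperone, SGK1 and EGF receptor lists each had 0 genes past the threshold. The receptor list had 1 with library totals alone, limma voom or robust=FALSE, and the SGK1 list 1 with limma voom or robust=FALSE. With 1 sample left out the counts past the threshold were 0 to 1 in the receptor, SGK1, EGF receptor and KLF lists, 4 to 9 in the induced list, 1 to 3 in the repressed list and 2 to 3 in the zinc list. The cause was not tested.

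Small values turned sign. Klf16 had 0.006 with library totals alone and 0.002 with voom, Hsd11b2 0.010 with library totals alone and 0.009 with DESeq2, and H6pd -0.005 with no filter. With 1 sample left out the log2 fold change spanned -0.106 to 0.193 for Tsc22d3, -0.025 to 0.052 for Fkbp5, -0.025 to 0.096 for Errfi1, -0.148 to 0.024 for Klf9, -0.005 to 0.021 for Klf13, -0.036 to 0.048 for Sgk3, -0.110 to 0.094 for Klf16, -0.227 to 0.213 for Hsd11b2 and -0.025 to 0.027 for H6pd. Each fit with 1 sample of a group assumes that it varies like the other group.

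With the replicate number as a block, the count of changed genes was 2285, and those past the threshold were 2 in the EGF receptor list, 3 in the SGK1 list and 13 in the induced list. The labels do not say whether same-numbered samples are paired. Deviations of same-numbered samples from their group means correlated at 0.0763 over 10763 genes. With 2 samples per group that value cannot settle whether they are paired. Depth limits genes near 1 CPM such as Hsd11b2.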

Other observations

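The genes around the metallothionein cluster were looked at after the values of Mt1 and Mt3 were seen. Bbs2, on one side of the cluster, had 10.9 and 10.9 CPM in the controls and 13.1 and 14.6 CPM in the knockdown samples, a log2 fold change of 0.35 ± 0.13 that did not pass the test (edgeR adjusted p = 0.0867). Nup93, a nuclear pore gene on the other side, had 59.6 and 54.8 CPM against 61.2 and 65.1 CPM, with a log2 fold change of 0.15 ± 0.07 (edgeR adjusted p = 0.226). Neither neighbour passed the test, and both log2 fold changes were above 0, beside -0.41 and -0.55 for Mt1 and Mt3. Whether the fall is particular to the metallothionein genes was not tested. Gm45774, which overlaps Mt2 on the opposite strand, had a log2 fold change of 2.44 ± 0.86 from at most 11 reads a sample and did not pass the test (edgeR adjusted p = 0.0683).

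The 19 genes of the receptor and chaperone list summed to 5767 and 5731 CPM in the controls and to 5740 and 5771 CPM in the knockdown samples. The authors' deposited table covers 780 genes, beside 55812 features in the count table. Of the induced, paralog, zinc and repressed lists it holds 6, 1, 3 and 1 genes. Of the receptor, SGK1, EGF receptor and KLF lists it holds 0, so the genes called in those lists are absent from it. Of the 10 chosen genes it holds 2, Tsc22d1 and Mt1.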
